A study of Homo sapiens with 14 samples.

Results

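The WIPI family is a group of 4 related genes in human cells, WIPI1, WIPI2, WDR45 (also called WIPI4) and WDR45B (also called WIPI3, and WDR45L in older tables), and its levels were followed in U2OS cells treated with small molecules. The members were taken by symbol from 5 names. WDR45L had no row of its own, and the other 4 were found among 22919 genes listed in both expression tables, of 30791 listed in either. U2OS is an established human osteosarcoma line, and RNA was sequenced as poly(A) RNA from bulk cultures. The 9 compounds and their treatments were 2-PCPA (tranylcypromine, which blocks the histone demethylase KDM1A) at 1 mM for 12 h, GSK343 (an EZH2 inhibitor) at 10 μM for 24 h, rapamycin (an mTOR inhibitor) at 5 μM for 24 h, BIX-01294 at 5 μM for 12 h and BRD4770 at 20 μM for 24 h (both directed at EHMT histone methyltransferases), GSK-J4 (a KDM6 demethylase inhibitor) at 20 μM for 12 h, SAHA at 1 μM and VPA at 20 μM for 24 h each (both histone deacetylase inhibitors), and UNC1215 (an L3MBTL3 ligand) at 50 μM for 24 h. The reference was the solvent DMSO at 0.5% by volume, for which the labels give no time. 2-PCPA, GSK343, rapamycin and DMSO had 2 libraries each and the other 6 compounds 1 each, 14 in all. All cells were of the same unmodified line, and whether replicates were separate cultures is not stated, so the p-values speak for the spread among these libraries alone, and that spread may be technical.

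WIPI proteins are propeller-shaped proteins built of WD repeats that bind phosphatidylinositol 3-phosphate (PI3P), the membrane lipid made by the kinase PIK3C3 where an autophagosome begins to form. WIPI1 collects on such membranes and is widely used as a marker of them. WIPI2 recruits ATG16L1 and with it the machinery that attaches LC3 to the membrane. WDR45B and WDR45 act later in the growth of the membrane, WDR45 together with the lipid-transfer proteins ATG2A and ATG2B, and mutations of the X-linked WDR45 cause a neurodegenerative disease with iron accumulation in the brain.

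Replicate 1 of all 10 groups stood in one FPKM table (fragments per kilobase of transcript, scaled to the mapped fragments of the library) and replicate 2 of 4 groups in another, so each library was set against DMSO of its own table. Differences are on the log2(FPKM + 1) scale, which understates the change of low genes. The tables differed more than the treatments: within the tables the replicated groups' libraries had correlations of 0.944 to 0.960 (replicate 1) and 0.929 to 0.940 (replicate 2), and between replicates they were 0.789 to 0.811. Relative depth, with DMSO of each table as 1 and read from the steps between low FPKM values, was 0.555 (BIX-01294) to 1.24 (SAHA) in replicate 1 and 0.676 (GSK343) to 0.809 (2-PCPA) in replicate 2. The 2-PCPA replicate 1 library stood apart, with FPKM above 0 for 28.5% of 393 olfactory receptor genes, against 2.80% to 6.62% in the other 9 libraries of that table. The median difference of all genes tested was −0.20 for 2-PCPA, 0.03 for GSK343 and −0.05 for rapamycin, so differences of members under 2-PCPA against DMSO are also given after centring each library on its median. Scaling each library to the same total (TPM) put the median of all genes at 0.10 for 2-PCPA, −0.03 for GSK343 and −0.13 for rapamycin. Of 8 mesenchymal markers listed for U2OS, 5 (VIM, SPARC, COL1A1, FN1 and CD44) had a median of at least 10 FPKM in both tables, RUNX2 lay between 0.629 and 5.27 FPKM, COL1A2 reached at most 0.0987 FPKM and TWIST1 was at 0 in every library. Of 13 genes of other tissues or silent in this line, 12 were below 1 FPKM in every library and EPCAM reached 2.51 FPKM, and the list's summed level was 1.17 to 3.64 FPKM. In a bulk culture, more RNA per cell and more cells with the RNA cannot be told apart.

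The members differed widely in level, and their order was nearly the same in every library. In DMSO WDR45B was the highest, with 71.0 and 70.7 FPKM in replicates 1 and 2, above 92.0% and 90.2% of the genes that reached 1 FPKM. WIPI2 had 23.7 and 36.0 FPKM and WDR45 15.3 and 19.3 FPKM. WIPI1, the usual marker of nascent autophagosomes, was the lowest, with 4.10 and 7.65 FPKM, above 26.1% and 40.1% of those genes. WDR45B ranked first and WIPI1 last in all 14 libraries. WIPI2 ranked second in 10 libraries, and WDR45 ranked second in the other 4, which were both rapamycin libraries and the single GSK-J4 and VPA libraries. FPKM is per length, so levels of the members can be set side by side. The DMSO replicates differed between the tables by 1.86 times for WIPI1 and 1.52 times for WIPI2, but by 1.26 times for WDR45 and 0.995 times for WDR45B.

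**Figure D1:**
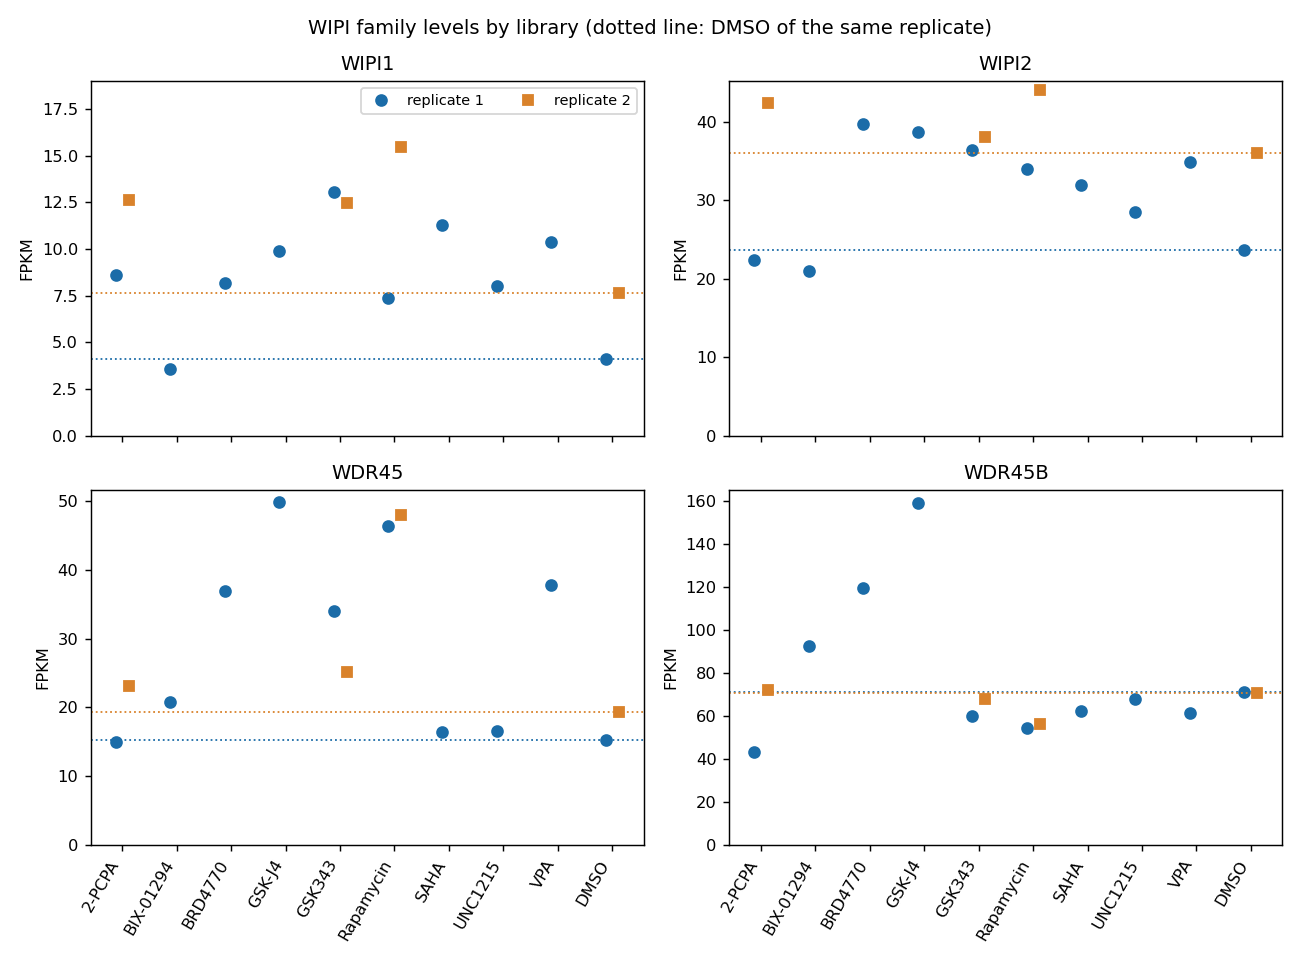
Level in FPKM (vertical axes, starting at 0) of each WIPI family member in each of the 14 libraries, by compound with DMSO at the right; circles are replicate 1, squares replicate 2, and dotted lines mark DMSO of the same replicate. WIPI1 lay above DMSO in every library but BIX-01294, WDR45 had 46.4 and 48.0 FPKM in the rapamycin libraries, and WDR45B reached 159 FPKM with GSK-J4.

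Rapamycin gave the largest replicated difference of any member. WDR45 had 46.4 and 48.0 FPKM in the rapamycin libraries of replicates 1 and 2, against 15.3 and 19.3 FPKM in DMSO. Both rapamycin libraries were above both DMSO libraries, by 3.03 and 2.49 times within the tables. The log2 difference was 1.41 ± 0.27 (SE, n = 2 libraries per group, 95% interval 0.79 to 2.03), and it did not pass over all genes (limma adjusted p = 0.386). Of 12603 genes tested, 80 had a larger positive log2 difference. WDR45 was at least 1 log2 unit above DMSO in both replicates, as were 0.341% of the genes tested. The limma call depended on which rows were in the fit and on the eBayes setting. Without small RNA and clone rows WDR45 passed (limma adjusted p = 0.00727), as did 0.539% of the 12239 genes then tested. WDR45 also passed with robust eBayes of limma (adjusted p = 0.0116), where 0.206% of genes did, and without rows at 0 throughout the replicate 1 libraries (limma adjusted p = 0.0452), where 0.204% did. Over all alternatives the log2 difference ran from 1.23 to 1.53 and the limma adjusted p from 0.00727 to 1.

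The RefSeq promoters of the members that differed most are shown here because the levels of WDR45 and WIPI1 are what the results turn on. Each runs from 250 bases before a transcript start to 10 bases after it on the coding strand (RefSeq, build GRCh38.p14, which is not the hg19 build of the expression values). Capitals mark matches on either strand to CACGTG (the E-box bound by the TFEB family), its extended lysosomal form, the CLEAR element, TTGCATCA (bound by ATF4 with C/EBP factors), GTAAACA (bound by forkhead factors such as FOXO) and GGGCGG (the GC box bound by SP1). The last was added after the sequences were seen.
WIPI1, chr17:68457487-68457746, minus strand: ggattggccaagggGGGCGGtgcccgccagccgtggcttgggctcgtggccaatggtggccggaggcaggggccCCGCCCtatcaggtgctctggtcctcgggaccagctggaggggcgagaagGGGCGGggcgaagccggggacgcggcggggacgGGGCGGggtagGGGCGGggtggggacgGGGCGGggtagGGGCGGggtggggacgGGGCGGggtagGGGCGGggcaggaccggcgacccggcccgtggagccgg
WDR45, first start, chrX:49079878-49080137, minus strand: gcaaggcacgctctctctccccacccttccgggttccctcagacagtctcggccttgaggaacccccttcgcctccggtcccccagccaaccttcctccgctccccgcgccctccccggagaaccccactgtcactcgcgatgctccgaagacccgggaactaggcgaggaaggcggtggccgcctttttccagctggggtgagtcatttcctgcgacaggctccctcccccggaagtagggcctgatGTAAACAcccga
WDR45, second start, chrX:49101169-49101428, minus strand: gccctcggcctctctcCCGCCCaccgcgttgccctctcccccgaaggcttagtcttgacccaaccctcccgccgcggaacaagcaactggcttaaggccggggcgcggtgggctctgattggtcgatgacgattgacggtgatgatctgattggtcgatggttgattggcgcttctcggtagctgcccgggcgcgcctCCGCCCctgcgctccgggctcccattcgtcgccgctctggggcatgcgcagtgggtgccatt

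No promoter was listed for WDR45B, so it is not covered here. Over whole windows of 300 bases, the E-box and its extended form were in 0 of the 5 promoters listed for WIPI1, WIPI2 and WDR45. Of 35116 promoters, 7.26% and 0.353% held them. TTGCATCA was in 0 of the 5, against 0.866% of all promoters. GTAAACA was in 1 of the 5, against 3.42%. It lay across the WDR45 start printed first, which is lower in chromosome position and so the downstream start on the minus strand. The GC box was in 3 of the 5, against 45.0%, and does not overlap the other motifs in these windows. The WIPI1 window held 10 GC boxes, 9 of them in the stretch printed, and at least as many were in 0.214% of all promoters. Its base composition was 79.7% G and C, against a median of 58.7% over all promoters. A match is a run of letters, not a measured binding site, and no binding was measured here.

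WIPI1 was higher in all 3 replicated treatments, and none of these differences passed over all genes. With GSK343 it had 13.0 and 12.5 FPKM in replicates 1 and 2, against 4.10 and 7.65 FPKM in DMSO. Both GSK343 libraries were above both DMSO libraries, and the log2 difference was 1.05 ± 0.27 (SE, n = 2 libraries per group, 95% interval 0.44 to 1.66, limma adjusted p = 0.913). It was larger in replicate 1 (1.46) than in replicate 2 (0.64), where DMSO was itself higher. Without GSK343 replicate 1 the log2 difference was 0.65, and without GSK343 replicate 2 it was 1.45.

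With rapamycin WIPI1 had 7.39 and 15.5 FPKM, against 4.10 and 7.65 FPKM in DMSO. The rapamycin library of replicate 1 was just below the DMSO library of replicate 2, so the groups overlap across the tables although each rapamycin library was above DMSO of its own table, by 1.80 and 2.02 times. The log2 difference was 0.82 ± 0.27 (SE, n = 2 libraries per group, 95% interval 0.22 to 1.43, limma adjusted p = 0.690), and it was 0.54 without rapamycin replicate 2.

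With 2-PCPA WIPI1 had 8.60 and 12.6 FPKM, against 4.10 and 7.65 FPKM in DMSO. Both 2-PCPA libraries were above both DMSO libraries, by 2.10 and 1.65 times within the tables. The log2 difference was 0.78 ± 0.27 (SE, n = 2 libraries per group, 95% interval 0.18 to 1.39, limma adjusted p = 0.592), 0.99 after centring each library on its median, 1.18 after TPM scaling, and 0.76 without 2-PCPA replicate 1, the library that stood apart. In that library 189 of 12804 genes had a larger positive difference than WIPI1, and in replicate 2 310 of 12603 genes did. These 3 comparisons share their DMSO libraries, so the level of DMSO enters each of them.

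WIPI1 overlaps 2 other protein-coding genes in the RefSeq annotation, ARSG (a lysosomal sulfatase) and PRKAR1A (a regulatory subunit of protein kinase A), and no source used here says whether reads kept their strand. ARSG was at most 0.919 FPKM in any library. PRKAR1A, at 46.2 to 105 FPKM, had log2 differences of −0.04 and −0.01 with rapamycin, −0.00 and 0.14 with GSK343, and −0.64 and 0.07 with 2-PCPA in replicates 1 and 2.

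WDR45 had 34.1 and 25.2 FPKM with GSK343, against 15.3 and 19.3 FPKM in DMSO. Both GSK343 libraries were above both DMSO libraries, with a log2 difference of 0.74 ± 0.27 (SE, n = 2 libraries per group, 95% interval 0.12 to 1.36, limma adjusted p = 0.949). It was 1.10 in replicate 1 and 0.37 in replicate 2, and without GSK343 replicate 1 the value was 0.37. With 2-PCPA WDR45 had 14.9 and 23.1 FPKM and overlapped DMSO, with a log2 difference of 0.11 ± 0.27 (limma adjusted p = 0.880, n = 2 libraries per group, 95% interval −0.51 to 0.73), 0.31 after median centring, 0.42 without 2-PCPA replicate 1 and −0.20 without 2-PCPA replicate 2. Differences between compounds were tested for 3 pairs over the same genes, and limma called 0 of 4 members in each. WDR45 was at −1.30 ± 0.27 log2 in 2-PCPA relative to rapamycin (n = 2 libraries per group, 95% interval −1.92 to −0.68, limma adjusted p = 0.244), where 0.0476% of the genes tested were called. It was −1.15 after median centring and −0.88 after TPM scaling. Without small RNA and clone rows WDR45 passed in this pair (limma adjusted p = 0.00835), as did 1.72% of all genes. It also passed with robust eBayes (limma adjusted p = 0.0132), where 0.667% of genes did, without rows at 0 throughout the replicate 1 libraries (limma adjusted p = 0.0413), where 0.597% did, and with only these groups in the fit (limma adjusted p = 0.0205), where 3.09% did. For GSK343 relative to rapamycin WDR45 was at −0.67 ± 0.27 (n = 2 libraries per group, 95% interval −1.29 to −0.05, limma adjusted p = 0.883), with 0.0793% of all genes called. Without GSK343 replicate 1 this value was −1.04, and without GSK343 replicate 2 it was −0.30. For 2-PCPA relative to GSK343 WDR45 was at −0.63 ± 0.27 (n = 2 libraries per group, 95% interval −1.25 to −0.01, limma adjusted p = 0.418), with 0.0317% of genes called. After median centring it was −0.38 (95% interval −0.81 to 0.04), after TPM scaling −0.21, without 2-PCPA replicate 1 −0.32 and without GSK343 replicate 1 −0.26. The doses of these compounds differ, and 2-PCPA was given for 12 h and the others for 24 h.

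WIPI2, which recruits the LC3 conjugation machinery, had 34.0 and 44.1 FPKM with rapamycin and 36.4 and 38.1 FPKM with GSK343, against 23.7 and 36.0 FPKM in DMSO. The rapamycin libraries overlapped the DMSO libraries across the tables and GSK343 did not. The log2 differences were 0.39 ± 0.25 with rapamycin (limma adjusted p = 0.781, 95% interval −0.18 to 0.97) and 0.34 ± 0.25 with GSK343 (limma adjusted p = 0.949, 95% interval −0.23 to 0.91), with n = 2 libraries per group. The GSK343 difference was 0.60 in replicate 1 and 0.08 in replicate 2, and it was 0.066 without GSK343 replicate 1 and 0.61 without GSK343 replicate 2. With 2-PCPA WIPI2 had 22.4 and 42.4 FPKM, a log2 difference of 0.08 ± 0.25 (limma adjusted p = 0.913, n = 2 libraries per group), 0.28 after median centring, 0.35 without 2-PCPA replicate 1 and −0.20 without 2-PCPA replicate 2.

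WDR45B, the most abundant member, had lower values than DMSO in both rapamycin libraries. It had 54.4 and 56.4 FPKM with rapamycin, against 71.0 and 70.7 FPKM in DMSO, a log2 difference of −0.35 ± 0.25 (n = 2 libraries per group, 95% interval −0.92 to 0.23, limma adjusted p = 0.803). The groups do not overlap, and without DMSO replicate 1 the difference was −0.19, without rapamycin replicate 2 −0.22. It had 59.7 and 67.6 FPKM with GSK343, also below both DMSO libraries (−0.16 ± 0.25, limma adjusted p = 0.963, n = 2 libraries per group), with a difference of 0.0066 without DMSO replicate 1. With 2-PCPA it had 43.1 and 72.0 FPKM, and the log2 difference of −0.34 ± 0.25 (limma adjusted p = 0.614, n = 2 libraries per group) was −0.14 after median centring, 0.017 after TPM scaling and −0.01 without 2-PCPA replicate 1, the library that stood apart.

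Over the 4 members limma called 0 with each of 2-PCPA, GSK343 and rapamycin, where 0.0238%, 0.0159% and 0.0159% of all 12603 genes tested were called. At an unadjusted p under 0.05 there was 1 member with 2-PCPA (WIPI1) and 2 each with GSK343 and rapamycin (WIPI1 and WDR45), where 7.48%, 4.22% and 6.46% of all genes were. No member was at least 1 log2 unit above DMSO in both replicates with 2-PCPA or GSK343, as 0.127% and 0.309% of all genes were.

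**Figure D2:**
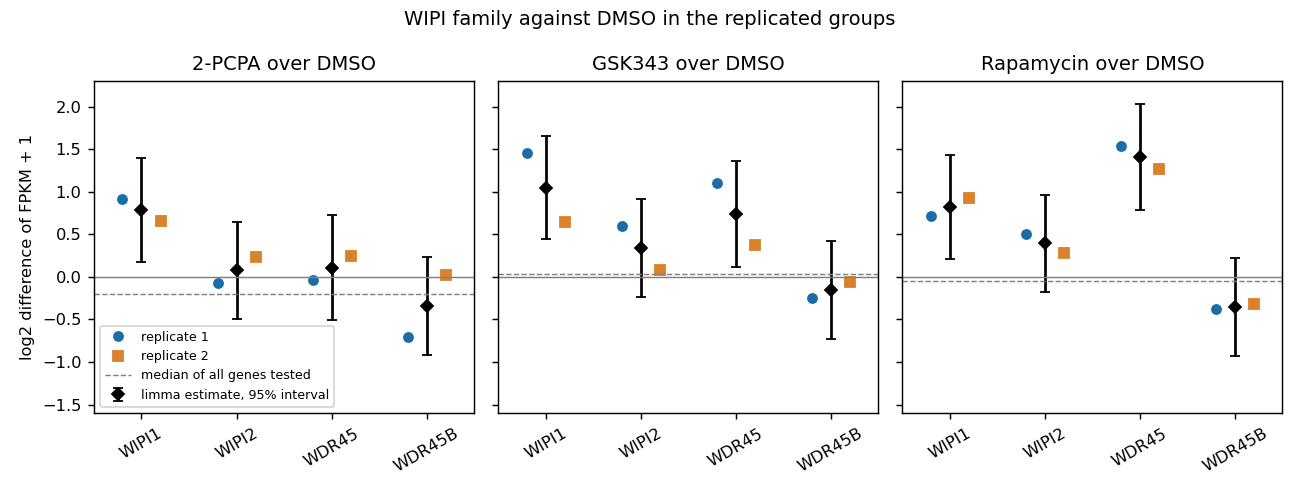
Log2 difference of FPKM + 1 against DMSO (vertical axis) for the 4 members in 2-PCPA, GSK343 and rapamycin; diamonds with bars are limma estimates with 95% intervals, circles and squares the differences in replicates 1 and 2, and the dashed line is the median of all genes tested. WDR45 with rapamycin was at 1.41, WIPI1 lay between 0.78 and 1.05 in all 3, and WDR45B lay between −0.35 and −0.16.

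**Figure D3:**
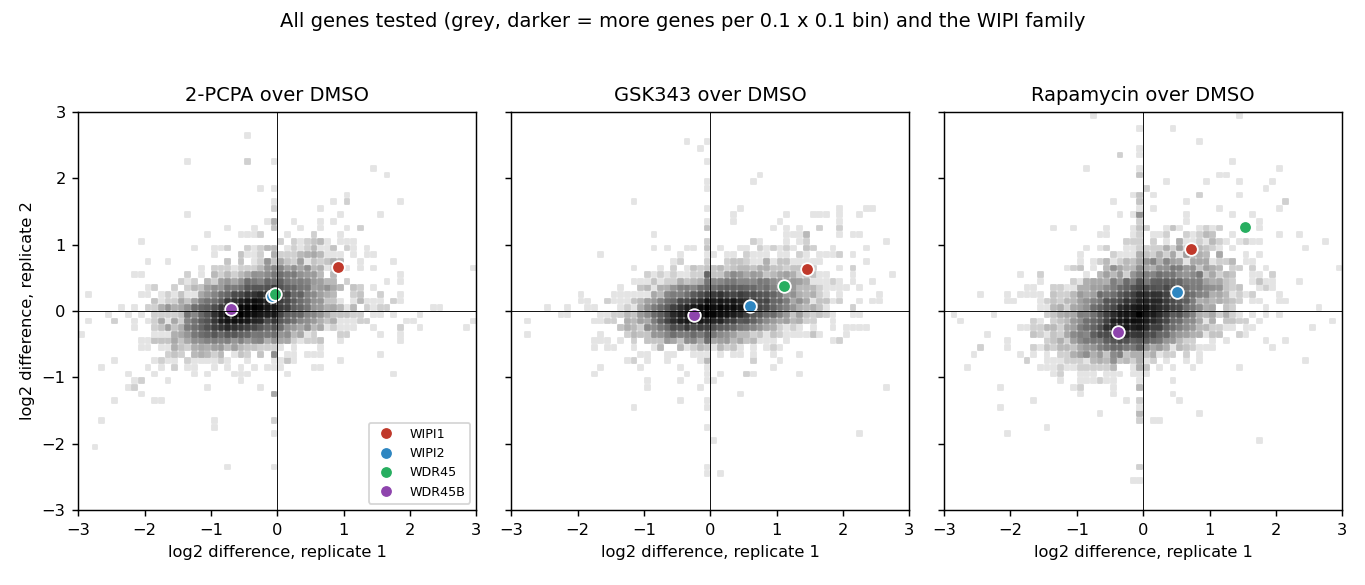
Log2 difference against DMSO in replicate 1 (horizontal axis) and in replicate 2 (vertical axis) for the 12603 genes tested, binned in grey, with the 4 members as coloured points; the axes end at 3 log2 units. With rapamycin WDR45 was at 1.54 and 1.27, out at the upper right of the grey cloud, and with GSK343 WIPI1 (1.46 and 0.64) was the member farthest from the centre.

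The 6 compounds with 1 library each have no replicate check, and they share the DMSO library of replicate 1. WDR45 had 49.9 FPKM with GSK-J4, 37.8 FPKM with VPA and 36.9 FPKM with BRD4770, against 15.3 FPKM in DMSO. Their log2 differences were 1.64, 1.25 and 1.22, against 1.54 for rapamycin in the same table. With BIX-01294 WDR45 had 20.8 FPKM (0.42), and with UNC1215 and SAHA it had 16.5 and 16.4 FPKM (0.10 and 0.09). In the replicate 1 table GSK-J4, rapamycin, VPA, BRD4770 and GSK343 thus form an upper set of 34.1 to 49.9 FPKM, and the other 5 libraries, DMSO among them, a lower set of 14.9 to 20.8 FPKM. The sets are split at the largest step of the sorted values. GSK343 did not keep its place in replicate 2. There it had 25.2 FPKM, nearer to 2-PCPA (23.1 FPKM) and DMSO (19.3 FPKM) than to rapamycin (48.0 FPKM). Taken from the spread in the replicated groups, the SE of a difference between 2 single libraries was 0.38 log2 units for WDR45. Of the 9 steps between neighbours in the order, 1 exceeded it, the step between GSK343 and BIX-01294 (0.68).

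WIPI1 followed another order. SAHA gave 11.3 FPKM, VPA 10.4, GSK-J4 9.89, BRD4770 8.20 and UNC1215 8.02, all above the 4.10 FPKM of DMSO, and BIX-01294 gave 3.55 FPKM. The log2 differences were 1.27, 1.16, 1.09, 0.85, 0.82 and −0.16 in that order. Together with GSK343 at 13.0 FPKM as the highest, 8 of 9 treated libraries of the replicate 1 table lay above DMSO. The step from rapamycin to DMSO (0.72 log2) was the only one of 9 between neighbours in the order that exceeded the SE of 0.38 for 2 single libraries. The SAHA library thus had more WIPI1 (2.75 times DMSO) with WDR45 near DMSO (1.07 times), while VPA, the other deacetylase inhibitor, had more of both (2.53 and 2.47 times). The doses of SAHA and VPA differed, and the difference between them was not tested.

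WDR45B had its highest levels with GSK-J4 (159 FPKM), BRD4770 (119 FPKM) and BIX-01294 (92.6 FPKM), against 71.0 FPKM in DMSO, log2 differences of 1.15, 0.74 and 0.38. Each step between these 4 exceeded the SE of 0.36 for 2 single libraries, but only slightly, the largest being 0.41. Steps of about 1 SE do not separate these libraries. UNC1215 (67.8 FPKM), SAHA (62.3 FPKM) and VPA (61.3 FPKM) lay below DMSO by less than that SE. WIPI2 lay between 28.5 and 39.7 FPKM in these libraries except for BIX-01294 at 21.0 FPKM, against 23.7 FPKM in DMSO, and BRD4770 (39.7 FPKM, 0.72) and GSK-J4 (38.7 FPKM, 0.69) were its highest. Of its 9 steps between neighbours 0 exceeded the SE of 0.35 for 2 single libraries. In GSK-J4 and BRD4770 all 4 members were above DMSO, WIPI2 the least in both. In BIX-01294, the library of lowest depth, WIPI1 and WIPI2 lay just below DMSO and WDR45 and WDR45B above.

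Counted at 1 log2 unit or more above DMSO in the replicate 1 table, 3 members passed with GSK-J4 (WIPI1, WDR45 and WDR45B), where 8.92% of 12804 genes did. With VPA 2 members passed (WIPI1 and WDR45), where 2.81% of genes did, and with GSK343 the same 2, where 4.78% did. WDR45 alone passed with rapamycin (2.74% of all genes) and BRD4770 (5.94%), and WIPI1 alone with SAHA (7.79%). With 2-PCPA, BIX-01294 and UNC1215 0 members passed, where 1.27%, 9.97% and 1.8% of genes did. In every library 0 members were 1 log2 unit or more below DMSO, a count for which the share of all genes is not given here. The number of genes with a larger difference than WDR45 was 107 with rapamycin, 182 with VPA, 409 with GSK-J4, 459 with GSK343 and 509 with BRD4770, of 12804.

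The summed FPKM of the 4 members was 258 with GSK-J4 and 204 with BRD4770, against 114 in DMSO of the same table, 2.26 and 1.79 times. With rapamycin the sum was 142 and 164, against 114 and 134 in DMSO, 1.25 and 1.23 times, and its make-up differed in both replicates. WDR45 was 32.6% and 29.3% of the sum with rapamycin, against 13.4% and 14.4% in DMSO, and WDR45B was 38.3% and 34.4%, against 62.2% and 52.9% in DMSO. With GSK-J4 the share of WDR45B was 61.8%, close to that in DMSO, while that of WIPI2 was 15.0%, against 20.7% in DMSO.

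**Figure D4:**
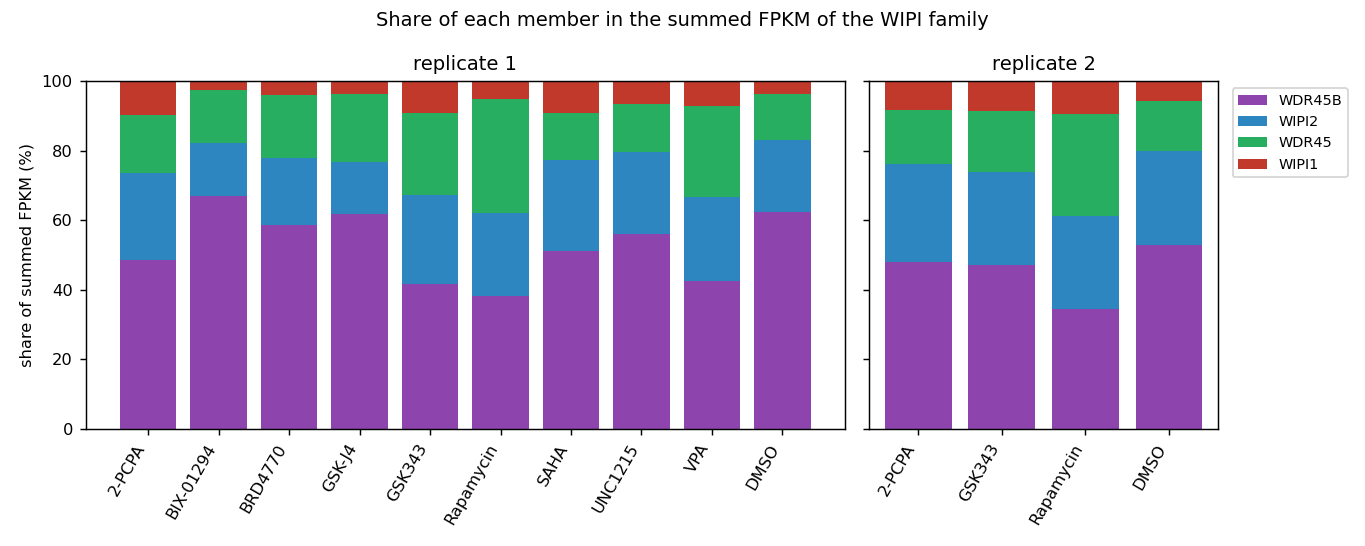
Share of each member in the summed FPKM of the family (vertical axis, percent) in the 10 libraries of replicate 1 and the 4 of replicate 2, with DMSO at the right of each panel. The WDR45 part is widest with rapamycin in both panels (32.6% and 29.3%), and the WDR45B part is narrowest there (38.3% and 34.4%).

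The genes on either side of WDR45 and WDR45B did not share these patterns throughout. PRAF2 and GPKOW, the neighbours of WDR45 on chromosome X, had log2 differences with rapamycin of 0.37 and 0.41 for PRAF2 and of −0.06 and −0.00 for GPKOW in replicates 1 and 2, against 1.54 and 1.27 for WDR45. With GSK-J4 PRAF2 was at 0.02 and GPKOW at −0.33, and with BRD4770 they were at −0.24 and −0.11. With VPA, where WDR45 was at 1.25, both were above DMSO (0.58 and 0.26). On chromosome 17, RAB40B next to WDR45B was at 10.1 FPKM with BRD4770 and 8.35 FPKM with GSK-J4, against 1.93 FPKM in DMSO. These were also the libraries with the highest WDR45B. With BIX-01294, the next in WDR45B, RAB40B was at 0.982 FPKM, below DMSO. RAB40B was also high with SAHA (6.50 FPKM) and VPA (6.42 FPKM), where WDR45B was not. FOXK2 on the other side was at −0.00 and −0.02 log2 with BRD4770 and GSK-J4.

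Partner genes were described by lists chosen with earlier results of these data known. Limma called 0 genes of every list in every one of the 3 comparisons with DMSO. Over all genes it called 3, 2 and 2 of 12603 with 2-PCPA, GSK343 and rapamycin. Without small RNA and clone rows it likewise called 0 list genes, and 38, 46 and 66 of 12239 over all genes. The initiation kinase complex, which starts autophagy upstream of PI3P, had 3 members tested of 5 listed, and all 3 were above DMSO in both rapamycin replicates, as were 25.5% of all genes. Its median log2 difference with rapamycin was 0.68, against −0.05 for all genes. Of the 3, 2 had an unadjusted limma p under 0.05, as did 6.46% of all genes. The kinase ULK1 had 13.8 and 16.6 FPKM with rapamycin, against 4.82 and 12.2 FPKM in DMSO (0.88 ± 0.34, n = 2 libraries per group, limma adjusted p = 0.752). Its regulatory subunit ATG13 had 19.5 and 19.6 FPKM, against 10.6 and 13.2 FPKM in DMSO (0.68 ± 0.22, n = 2 libraries per group, limma adjusted p = 0.690).

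The PI3K complex that makes PI3P had a median of −0.13 with rapamycin, with 2 of 8 genes above DMSO in both replicates and 4 below, where 25.5% and 37.1% of all genes were. BECN1, its regulatory subunit, was at 25.3 and 25.9 FPKM with rapamycin, against 20.6 and 19.1 FPKM in DMSO (0.36 ± 0.22, limma adjusted p = 0.774, n = 2 libraries per group). A list of WIPI binding partners together with lipid-transfer and other proteins of early autophagosome sites, among them ATG2A, ATG2B, ATG16L1, ATG9A, VMP1 and TMEM41B, had a median of −0.03 with rapamycin, 0.15 with GSK343 and −0.07 with 2-PCPA over 11 genes. ZFYVE1, a PI3P-binding protein of early autophagosome sites, was the highest of them with GSK343 (12.8 and 9.89 FPKM, against 5.35 and 7.51 FPKM in DMSO, 0.74 ± 0.25, limma adjusted p = 0.949, n = 2 libraries per group). With rapamycin ATG5, part of the LC3 conjugation machinery, was at −0.38 ± 0.24 (limma adjusted p = 0.774, n = 2 libraries per group). With 2-PCPA TSC2, an inhibitor of mTOR signalling, was at −0.96 in replicate 1, where the median of all genes was −0.43, and at −0.07 in replicate 2 (−0.52 ± 0.34, limma adjusted p = 0.597). Of 14 phosphoinositide phosphatases and kinases tested, 4 were above DMSO and 6 below in both rapamycin replicates, where 25.5% of all genes were above and 37.1% below, and the median was −0.02. The PI3P phosphatases MTMR4 (11.7 and 15.1 FPKM with rapamycin, against 20.8 and 20.8 FPKM in DMSO, −0.61 ± 0.22) and MTMR2 (12.4 and 15.8 FPKM, against 25.5 and 18.7 FPKM, −0.60 ± 0.25) had the largest differences of these (limma adjusted p = 0.746 and 0.752, n = 2 libraries per group).

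The 6 AMPK subunits, of a kinase that activates ULK1, had medians of −0.23, −0.04 and −0.01 with 2-PCPA, GSK343 and rapamycin, against −0.20, 0.03 and −0.05 for all genes. The TFEB family with targets, 10 genes, had 0.03, 0.29 and 0.30. The cargo receptor SQSTM1 had 133 and 165 FPKM with GSK343, against 50.2 and 98.7 FPKM in DMSO (1.06 ± 0.26, limma adjusted p = 0.895, n = 2 libraries per group), and 7 of the 10 were above DMSO in both replicates with GSK343 and with rapamycin, as were 34.6% and 25.5% of all genes. The LC3 relative GABARAPL1 had 48.2 and 55.7 FPKM with rapamycin, against 25.7 and 28.1 FPKM in DMSO (0.92 ± 0.26, limma adjusted p = 0.611, n = 2 libraries per group). The protease CTSD was at 0.65 ± 0.32 with rapamycin (limma adjusted p = 0.757). With 2-PCPA SQSTM1 was at 0.63 and 0.79 in replicates 1 and 2 (0.71 ± 0.26, limma adjusted p = 0.592). TFEB itself was at 0.77 and 0.17 with 2-PCPA (0.47 ± 0.24, limma adjusted p = 0.592), the larger value in the library that stood apart. The 52 other WDR genes tested, of the same repeat fold, had medians of −0.21, 0.00 and −0.01 in the same order.

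For each member the genes with the most similar levels were ranked by Pearson's r of log2(FPKM + 1) over the 10 replicate 1 libraries, among 8760 genes whose mean reached 5 FPKM. These libraries share 1 table and differ in depth, and those of WDR45 fall into an upper and a lower set, so r is a description. For WDR45 the first 5 were AK057321 (r = 0.950, Spearman's rho 0.758), ATG13 (0.950, 0.915), the translation factor EEF1A1 (0.934, 0.903), the Polycomb gene PHC2 (0.933, 0.976) and MANEAL (0.931, 0.927). In the replicate 2 table, which this ranking did not use, ATG13 was at 13.8, 14.3 and 19.6 FPKM with 2-PCPA, GSK343 and rapamycin, against 13.2 FPKM in DMSO, the same order as WDR45 (23.1, 25.2 and 48.0 FPKM, against 19.3 FPKM). Only the rapamycin value of ATG13 stood clear of DMSO (0.54 log2). With 2-PCPA and GSK343 it was 0.06 and 0.11 log2 above, less than its SE of 0.22 for groups of 2 libraries. EEF1A1 was there below DMSO with 2-PCPA (2209 FPKM) and above with GSK343 (2726 FPKM) and rapamycin (3438 FPKM), against 2360 FPKM. PHC2 was highest with 2-PCPA (75.4 FPKM, against 24.8 FPKM in DMSO), where WDR45 was not.

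**Figure D5:**
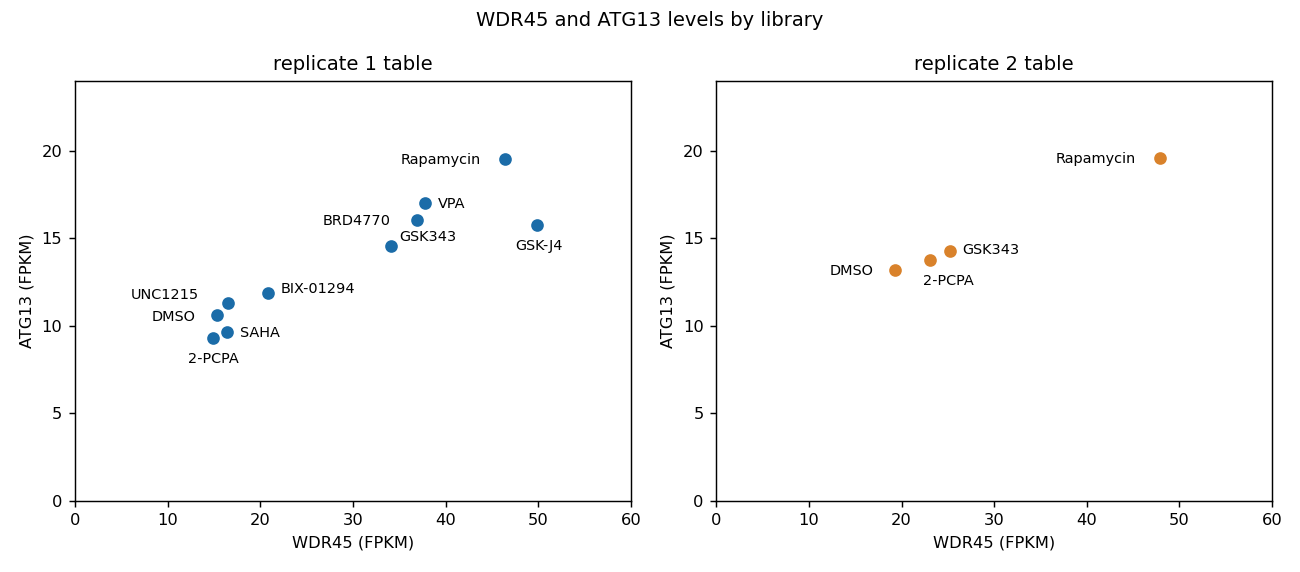
Level of ATG13 (vertical axis, FPKM) against that of WDR45 (horizontal axis, FPKM) in each library of the replicate 1 table (left) and the replicate 2 table (right). In the left panel 5 libraries with WDR45 at 34.1 FPKM or more lie above the other 5 in ATG13, and rapamycin is the highest in ATG13 in both panels (19.5 and 19.6 FPKM).

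For WDR45B the most similar genes were JOSD1 (r = 0.974, rho 0.806), the glycolytic enzyme ENO1 (0.968, 0.927), the Golgi calcium pump ATP2C1 (0.966, 0.927), the methyltransferase SETD7 (0.965, 0.927) and CRYBB2P1 (0.960, 0.830). All 5 were highest with GSK-J4 and lowest with 2-PCPA, as WDR45B was. That 2-PCPA library stood apart, with a median of −0.43 over all genes. In the replicate 2 table WDR45B was lowest with rapamycin (56.4 FPKM, against 70.7 FPKM in DMSO), as were ENO1, SETD7 and CRYBB2P1. JOSD1 (28.1 FPKM, against 24.6 FPKM) and ATP2C1 (26.3 FPKM, against 24.9 FPKM) were above DMSO there with rapamycin. The likeness to WDR45B thus held only in part. The WDR45B difference with rapamycin (−0.32 log2) was below its SE of 0.36 for 2 single libraries. For WIPI1 the most similar genes were CDK11A (0.936, 0.818), PPP1R12C (0.909, 0.794), the lysosomal nuclease DNASE2 (0.885, 0.733), the ribonuclease RNASET2 (0.882, 0.818) and IRF2BPL (0.872, 0.867), all lowest with BIX-01294, the library of lowest depth. In the replicate 2 table CDK11A was at 16.2, 16.2 and 18.9 FPKM with 2-PCPA, GSK343 and rapamycin, against 16.2 FPKM in DMSO, while WIPI1 was higher in all 3. DNASE2 was higher there in all 3 (26.8, 21.3 and 22.8 FPKM, against 18.4 FPKM). For WIPI2 they were ABHD15 (0.953, 0.867), CALCOCO1 (0.950, 0.879), the polymerase subunit POLR1D (0.948, 0.915), APBB3 (0.944, 0.964) and NPDC1 (0.941, 0.879). CALCOCO1 was at 19.5, 17.4 and 25.5 FPKM in replicate 2 with 2-PCPA, GSK343 and rapamycin, against 14.6 FPKM in DMSO, the same order as WIPI2. The WIPI2 differences from DMSO there, 0.08 to 0.28 log2, were below its SE of 0.35 for 2 single libraries. POLR1D and NPDC1 were also above DMSO there in all 3, though not in the order of WIPI2. APBB3 was below DMSO there in all 3, and ABHD15 was below DMSO with rapamycin, where WIPI2 was highest. The likeness to WIPI2 thus held only in part in the replicate 2 table. Among the members themselves r over these 10 libraries ran from −0.14 (WIPI1 with WDR45B) to 0.78 (WIPI2 with WDR45).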

How the data were processed

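The deposited tables give FPKM per gene symbol, made by the authors. Per the submitters' processing notes, FastQC, cutadapt and TopHat2 were used with build hg19. What computed FPKM, with which annotation, is not given in the sources used here. Replicate 1 of all 10 groups has 28502 rows, replicate 2 of 4 groups has 25209, and 56.8% and 0.111% of the values have over 6 digits. In all, 1 row named unknown was dropped. Absolute depth is unknown.

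Genes averaging 1 FPKM or more across the 8 libraries of the replicated groups (12603, the 4 members included) were fitted once with limma 3.58.1 (R 4.3.3) on log2(FPKM + 1). The replicate number was a block and the eBayes prior followed the mean level (3 residual, 5.42 prior degrees of freedom). P-values were adjusted by Benjamini-Hochberg over all genes and called at 0.05. The numbers pair libraries by table: deviations from group means correlated at 0.710 to 0.784 in all 6 pairs. Single libraries (12804 genes) were described, with 1 log2 unit as the size counted. The SE between 2 single libraries is that of a limma contrast of group means of 2 scaled to 1 library each, and assumes that lone libraries vary like the replicated groups. Setting steps between sorted libraries beside 1 such SE is a description, not a test.

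Members, lists and tests were chosen with earlier results of these data known. List genes were named if called, or up to 3 per list by size among those that moved one way in both replicates, and not all of these are printed. By likeness, 5 genes were named per member. Promoters were matched by symbol in RefSeq (GRCh38.p14). Alternatives changed the pseudocount (0.1, 5), the filter (none, 5 FPKM), the scaling (medians, quantiles, TPM), the block, the eBayes settings, the groups or rows in the fit, and left out each library.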

Additional observations from a re-analysis of the deposited data

How the results depend on the processing

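Of 504 values from alternatives over 24 tested results, 471 kept their direction and their side of the threshold, 7 came to pass and 26 changed sign, none of them past the threshold. The 471 do not measure robustness as a whole, because many could not change direction. Row filters, eBayes settings, the block and the groups in the fit cannot change the log2 difference of a member. Nor can leaving out a library of a group that is not compared. The 7 are WDR45 with rapamycin against DMSO (log2 difference 1.41) and 2-PCPA relative to rapamycin (−1.30), whose values did not move, under robust eBayes, small RNA and clone rows left out and rows at 0 throughout replicate 1 left out, and the second also with only the 2 groups compared (adjusted p = 0.0205 by limma). Under the other alternatives WDR45 with rapamycin was not called. WDR45B with 2-PCPA against DMSO was at 0.017 under TPM scaling. 2-PCPA relative to GSK343 turned to 0.062, 0.16 and 0.26 (WDR45B; median centring, quantile normalization, TPM scaling), 0.15 (WIPI1; TPM) and 0.051 and 0.17 (WIPI2; quantile, TPM). 2-PCPA relative to rapamycin turned to 0.11, 0.11 and 0.39 (WIPI1; median, quantile, TPM) and 0.11 (WIPI2; TPM). Leaving out each library in turn gave ranges, against DMSO, of −0.20 to 0.42 (WDR45, 2-PCPA), −0.20 to 0.35 (WIPI2, 2-PCPA) and −0.32 to 0.0066 (WDR45B, GSK343). For 2-PCPA relative to GSK343 they were −0.51 to 0.14 (WDR45B), −0.67 to 0.14 (WIPI1) and −0.54 to 0.012 (WIPI2), for 2-PCPA relative to rapamycin −0.32 to 0.33 (WDR45B) and −0.32 to 0.25 (WIPI1), and for GSK343 relative to rapamycin −0.18 to 0.63 (WIPI1) and −0.33 to 0.22 (WIPI2). The replicate block changed no call of a member: without the block WDR45 with rapamycin stayed at 1.41 (adjusted p = 1 by limma), and all 24 log2 differences were the same. Over all genes, calls ran from 0 to 66 with rapamycin (main 2), 0 to 46 with GSK343 (main 2) and 0 to 272 with 2-PCPA (main 3), and from 0 to 389, 98 and 1844 for 2-PCPA and GSK343 relative to rapamycin and 2-PCPA relative to GSK343 (main 6, 10 and 4). Among 120 single-library values 5 moved by more than the SE of a difference between groups of 2 libraries, all WIPI1 with a pseudocount of 5 (0.52 to 0.84). That SE is smaller than the SE for 2 single libraries (0.38 for WIPI1), which was not used for this count. Apart from fewer rows or samples, the cause of each change was not tested. With 2 libraries per group, 95% intervals of member differences reached 0.57 to 0.62 log2 units to either side.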
